A study of Mus musculus with 14 samples.

Results

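Immature type 1 innate lymphoid cells (iILC1) from the bone marrow of mice with and without Il15 in their blood cells were compared across every expressed gene. The comparison took 7 of the 14 libraries of the series by their labels, 4 from Il15 cKO mice and 3 from controls. Controls had an Il-15-flox/KO genotype and cKO mice were Vav-Cre;Il-15-flox/KO, so that all mice of both groups carried 1 knockout allele of Il15 and differed by the Cre transgene. The Vav promoter drives Cre in blood-forming cells and their progeny. All mice were C57BL/6 and 8 weeks old, with no treatment given in the labels. For each library 2000 cells were sorted as CD3-, NK1.1+, IL-7Ra+ and CD49a+. The other 7 libraries held immature natural killer cells (iNK; sorted as CD27+, NK1.1+ and DX5+ cells without CD3, CD11b or IL-7Ra) of the same genotypes, 3 control and 4 cKO. The labels do not state that libraries came from separate mice, so each p-value measures the spread between these samples only, which may in part be technical.

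Interleukin 15 is a short-range cytokine. Cells that make it present it on the receptor chain IL-15Ra to neighbours that carry the chains IL-2Rb and the common gamma chain, which signal through JAK1, JAK3 and STAT5. In natural killer cells and type 1 innate lymphoid cells this signal is known to sustain survival, division and the production of granzymes. The immature type 1 cells of the marrow also carry the receptor for interleukin 7, which signals through the same gamma chain and STAT5.

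Depth differed between the groups. The control libraries held 3512796, 4080632 and 4933284 counts and the cKO libraries 10308693, 7825040, 5478641 and 6882554, so that every cKO library was deeper than every control (exact permutation test, two-sided, p = 0.0571, the smallest that 3 against 4 can give, and 0.400 after adjustment over 7 library measures). The background was taken from 1383 receptor genes of smell, pheromone sensing and taste, which lymphocytes should not use. Scaled by total counts alone, their summed CPM was 2149, 3825 and 3268 in controls and 1287, 2617, 3449.6 and 3069 in cKO, and the groups overlapped (exact permutation p = 0.571). cKO library 1 stood apart: it was the deepest, had the lowest background, lay at -74.17 on a first principal component holding 55.4% of the variance where the other 6 libraries lay between -14.88 and 37.58, and detected 30803 genes when all libraries were thinned to the lowest total, against 33440 to 36825 in the others. Levels below are TMM-normalised CPM over the genes tested. Per kilobase of exon, 95% of the silent receptor genes lay below 4.82 CPM, and 10069 of the 26990 genes tested (37.3%) were above that level.

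**Figure D1:**
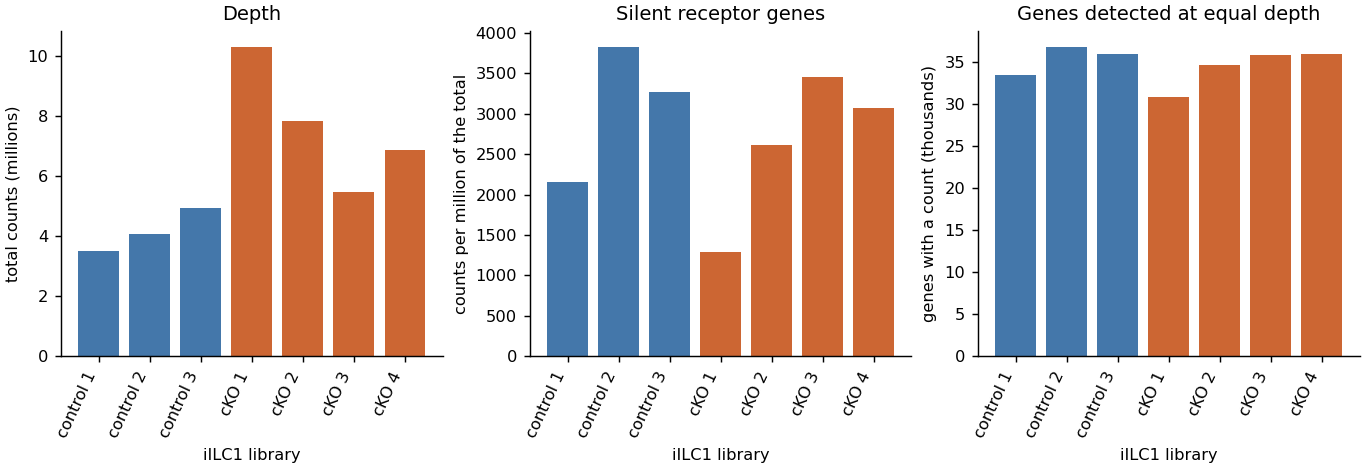
Bars give, for each of the 3 control and 4 cKO iILC1 libraries, the total counts, the CPM of 1383 silent receptor genes on total counts, and the genes with at least 1 count after thinning to 3512796 counts. The 4 cKO libraries are deeper than all controls, and cKO library 1 has the lowest background (1287) and the fewest genes (30803).

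The Il15 transcript stood at 13.7, 13.3 and 11.7 CPM in the controls and at 25, 18.1, 17.8 and 11.2 CPM in the cKO libraries, with overlap between the groups (log2 fold change 0.48, SE 0.280, edgeR adjusted p = 0.979). A count per gene does not separate the floxed part from the rest of the transcript, and both genotypes carry a knockout allele, so this value checks no label. The gate genes were all present. Klrb1c, which encodes NK1.1, averaged 522 CPM per kilobase over the 7 libraries, Il7r 170 and Itga1 (CD49a) 10.3. Cd3e, which encodes a chain of the CD3 complex used to exclude T cells, averaged 30.1 CPM per kilobase, above the level under which 95% of the silent genes lay.

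With edgeR's quasi-likelihood test, 13 of the 26990 genes tested (0.0482%) passed an adjusted p of 0.05. Of these, 6 (0.0222% of the genes tested) rose in cKO and 7 (0.0259%) fell. Those that rose were 4 genes of major histocompatibility complex (MHC) class II presentation, Psd2 and the pseudogene Gm6472. Those that fell were 2 granzymes, 2 Ly49 receptors, the integrin gene Itgam, the T cell receptor gene Trac and Tmem163. Before adjustment, 1221 genes (4.52%) had a p below 0.05, 711 (2.63%) with higher and 510 (1.89%) with lower estimates. The libraries of the groups did not overlap for any of the 13, a pattern that 1480 genes (5.48%) showed in either direction. Genes picked for small p in the same libraries will mostly show it, so it adds no support. Of all splits of 3 against 4, 5.71% give no overlap, close to the share over all genes. All but Tmem163 (2.11 CPM per kilobase) were above the level under which 95% of the silent receptor genes lay. The count was 8 without control library 1, 4 without control library 3, 7 without cKO library 2 and 25 without cKO library 4. Without cKO library 1, the one that stood apart, it was 17 and held all 13.

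**Figure D2:**
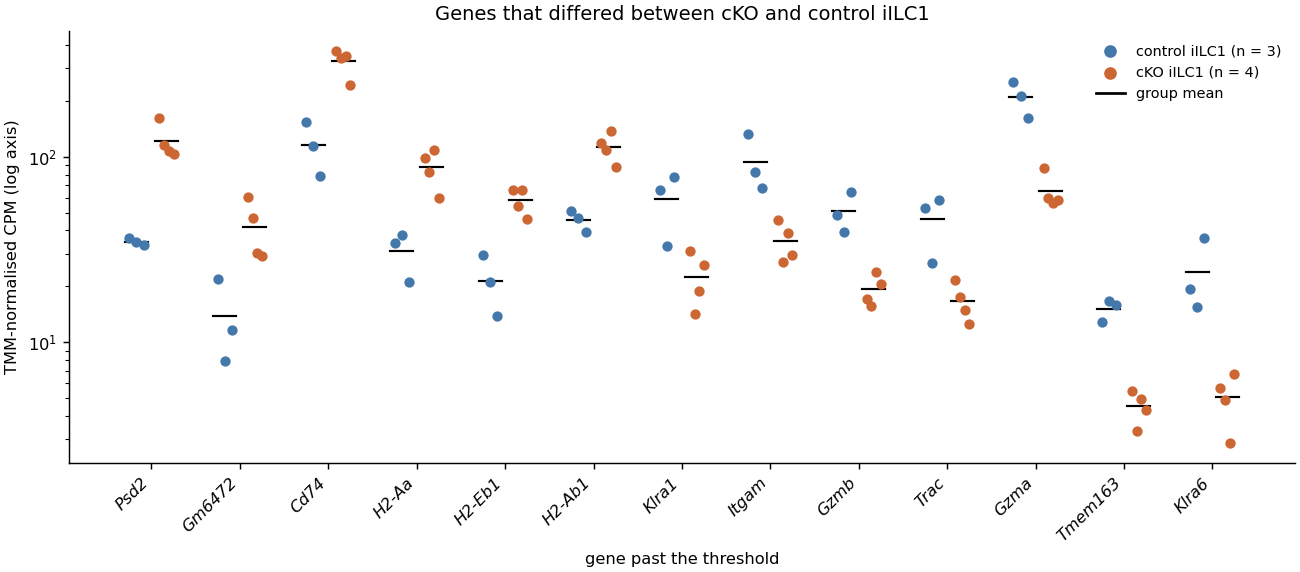
Each point is 1 iILC1 library (3 control, 4 cKO), each line a group mean, and the log axis gives TMM-normalised CPM for the 13 genes past the threshold. The cKO points lie wholly above the control points for the 6 genes that rose and wholly below them for the 7 that fell.

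MHC class II molecules display peptides to CD4 T cells, and innate lymphoid cells can carry them. Cd74, the invariant chain that guards the peptide groove until peptides are loaded, was at 154, 114 and 79.1 CPM in controls and 372, 342, 348 and 243 CPM in cKO (log2 fold change 1.50, SE 0.244, edgeR adjusted p = 0.00656). H2-Aa, the alpha chain of the I-A molecule, was at 34.2, 37.6 and 21.2 CPM against 98.8, 82.3, 109 and 60 CPM (log2 fold change 1.50, SE 0.264, edgeR adjusted p = 0.0140). H2-Ab1, its beta chain, was at 50.9, 46.5 and 39.2 CPM against 118, 108, 138 and 88.2 CPM (1.31, SE 0.246, edgeR adjusted p = 0.0272). The lowest cKO library was above the highest control for each of these genes, and control library 3 was the lowest library throughout. H2-Eb1, the beta chain of the I-E molecule, was at 29.5, 21.1 and 13.9 CPM against 65.9, 54.2, 66.0 and 46.1 CPM (1.45, SE 0.243, edgeR adjusted p = 0.00807). The alpha chain of I-E is not made in C57BL/6 mice, so that the transcript of its beta chain has no partner there. Without control library 3 none of the 4 calls held, with edgeR adjusted p-values of 0.336 for Cd74, 0.549 for H2-Aa, 0.661 for H2-Ab1 and 0.371 for H2-Eb1. H2-Ab1 was also lost without control library 1 (0.107), control library 2 (0.164), cKO library 2 (0.0950) or cKO library 3 (0.0991), H2-Aa without control library 1 (0.0673) or cKO library 3 (0.0594), and H2-Eb1 without control library 2 (0.0693). With the libraries of highest and lowest background left out together (control 2 and cKO 1), Cd74 and H2-Aa passed and H2-Ab1 (0.0955) and H2-Eb1 (0.0576) did not.

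The promoters of class II genes share a conserved module, in which the X box is bound by the RFX complex and the Y box by NF-Y, and the coactivator CIITA joins them. RefSeq (GRCm38.p6) gave a promoter for 8 of the 13 genes, and the 2 class II promoters among those, the 250 bases before the transcript start, are shown because they carry this module, with GCAAC (found in the X box) and CTGATTGG (the Y box) in capitals. H2-Aa lies at chr17:34282744-34287827 on the minus strand of mm10, H2-Eb1 at chr17:34305877-34316199 on the plus strand and H2-Ab1, the neighbour of H2-Aa, at chr17:34263209-34269418 on the plus strand. The H2-Aa promoter covers chr17:34287824-34288073 (minus strand) and the H2-Eb1 promoter chr17:34305617-34305866 (plus strand).
H2-Aa: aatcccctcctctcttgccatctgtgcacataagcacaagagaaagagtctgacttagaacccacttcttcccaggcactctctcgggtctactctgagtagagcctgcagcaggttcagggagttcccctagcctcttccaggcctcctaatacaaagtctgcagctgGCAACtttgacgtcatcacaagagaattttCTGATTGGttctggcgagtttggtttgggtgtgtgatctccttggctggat
H2-Eb1: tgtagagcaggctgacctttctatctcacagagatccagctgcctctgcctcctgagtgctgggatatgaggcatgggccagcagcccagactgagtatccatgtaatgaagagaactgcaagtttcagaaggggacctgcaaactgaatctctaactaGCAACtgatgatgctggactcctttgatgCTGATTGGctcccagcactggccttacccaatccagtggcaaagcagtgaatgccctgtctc
In H2-Aa 25 bases separate the motifs and in H2-Eb1 24. Searched on both strands of the 32851 mouse promoters of that length, CTGATTGG occurred in 1258 (3.83%), GCAAC in 9816 (29.9%), and GCAAC 10 to 40 bases before CTGATTGG on the same strand in 38 (0.116%). That pair and its spacing were chosen after these sequences were read. Among the other 6 promoters Gzma held GCAAC and none held CTGATTGG. TTCNNNGAA, a palindrome that STAT5 is known to bind, was in none of the 8 windows and in 2306 (7.02%) of all promoters.

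The other 13 genes of the class II list did not pass the test. All 17 members tested had higher estimates in cKO, against 51.6% of all genes, with a median log2 fold change of 0.48 against 0.01. By the test 4 of 17 rose, against 0.0222% of all genes tested. The groups did not overlap for 7 members, all higher in cKO, a pattern shown by 2.66% of the genes tested. Besides the 4 these were H2-DMa and H2-DMb1, the chains of the molecule that exchanges the invariant chain fragment for peptide, and Rfxank, a subunit of RFX. H2-DMa was at 35.7, 37.0 and 29.3 CPM against 67.9, 56.0, 48.4 and 43.5 CPM (log2 fold change 0.67, edgeR adjusted p = 0.832). H2-DMb1 averaged 9.78 CPM in controls and 18.7 CPM in cKO (0.94, edgeR adjusted p = 0.475). Ciita, the coactivator itself, averaged 18.3 and 20.8 CPM (0.17, edgeR adjusted p = 0.982) and lay, at 3.76 CPM per kilobase, under the level that 95% of the silent genes did not reach. Class II genes are abundant in B cells, dendritic cells and macrophages. In bulk libraries a few more cells of such a type and more transcript in each cell cannot be told apart. The summed level of 21 B and plasma cell markers was 482 ± 66.8 CPM (SD, n = 3) in controls and 603 ± 120 CPM (SD, n = 4) in cKO, with an exact permutation p of 0.171. Of these markers 6 had higher and 15 lower estimates (median -0.16). Only 5 of the 21 were above the level under which 95% of the silent genes lay. The 808 silent receptor genes tested had a median of -0.16 as well. Ighm, an antibody heavy chain gene, held most of the sum, at means of 310 CPM in controls and 442 CPM in cKO. Cd79a averaged 3.23 and 3.91 CPM. Igkc and Ly6d had lower estimates (-1.44 and -1.05, edgeR adjusted p = 0.979 for both). Cd79a and Ly6d lay, at 2.49 and 2.46 CPM per kilobase, under the level that 95% of the silent genes did not reach. For dendritic cells 19 markers summed to 566 ± 67.9 CPM (SD, n = 3) and 534 ± 82.9 CPM (SD, n = 4), and for monocytes and macrophages 19 markers to 832 ± 141 and 807 ± 226 CPM (exact permutation p = 0.571 and 0.800). Of the 17 dendritic cell markers tested 7 had higher and 10 lower estimates (median -0.05). Only 4 of the 17, and 10 of the 19 monocyte and macrophage markers, were above the level under which 95% of the silent genes lay. Itgax was the highest dendritic cell marker, at means of 194 CPM in controls and 135 CPM in cKO. Of the 19 monocyte and macrophage markers 14 had higher and 5 lower estimates (median 0.27), none passed, and 1, Lyz2, lay wholly higher in cKO. Ccr2, a chemokine receptor, held most of that sum, at means of 583 CPM in controls and 475 CPM in cKO. No defining marker of these types was at 0 in all 7 libraries.

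Granzymes are proteases that killer lymphocytes deliver into target cells. Gzma (chr13:113093825-113100979) was at 254, 212 and 161 CPM in controls and 87.1, 59.6, 56.5 and 58.1 CPM in cKO (log2 fold change -1.68, SE 0.241, edgeR adjusted p = 0.00169). Gzmb (chr14:56258856-56262260) was at 48.6, 39.4 and 64.8 CPM against 17, 15.6, 24 and 20.5 CPM (-1.41, SE 0.236, edgeR adjusted p = 0.00807). Gzma passed with any 1 library left out (edgeR adjusted p of 4.20e-05 to 0.0262), whereas Gzmb did not without control library 3 (0.371) or cKO library 2 (0.0880). They were the only 2 of the 24 granule and effector genes tested that passed, both lower, against 0.0259% of all genes tested. The list as a whole had 14 higher and 10 lower estimates and a median log2 fold change of 0.09. Prf1, the pore-forming perforin, averaged 202 CPM in controls and 156 CPM in cKO (-0.37, edgeR adjusted p = 0.979). Gzmc averaged 7.43 and 7.97 CPM, and Fasl, which encodes the death ligand FasL, 146 and 108 CPM (-0.44, edgeR adjusted p = 0.979). Ifng, the signature cytokine of these cells, was at 29.5, 26.8 and 19.8 CPM against 46.5, 25.5, 22.9 and 17.3 CPM (0.15, edgeR adjusted p = 0.984), and its estimate was -0.21 without cKO library 1.

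Ly49 receptors, encoded by the Klra cluster on chromosome 6, read MHC class I on other cells, and most inhibit the cell that bears them. Klra6 (chr6:130013033-130026954) was at 19.3, 15.5 and 36.5 CPM in controls and 5.69, 4.90, 2.86 and 6.74 CPM in cKO (log2 fold change -2.23, SE 0.325, edgeR adjusted p = 0.00169). Klra1 (chr6:130363918-130386874), which encodes Ly49A, was at 65.8, 33.2 and 77.9 CPM against 31.1, 14.1, 18.8 and 26.2 CPM (-1.38, SE 0.270, edgeR adjusted p = 0.0417). Control library 3 was the highest library for both. Without it Klra6 did not pass (edgeR adjusted p = 0.135) and neither did Klra1 (1.000), which was also lost without control library 1 (0.225), cKO library 2 (0.265) or cKO library 3 (0.144), or with the iNK libraries out of the fit (0.0906). Of 12 Ly49 genes tested 2 fell, against 0.0259% of all genes tested. Lower estimates were found for 10 of the 12, and for 13069 of all 26990 genes. The median log2 fold change of the 12 was -0.53. With size factors of DESeq2 in place of TMM only Klra6 passed. The groups did not overlap for 5 members, all lower, against 2.82% of the genes tested. The other 3 were Klra7 at 160, 126 and 228 CPM against 88.7, 58.7, 55.0 and 92.3 CPM (-1.22, edgeR adjusted p = 0.0724), Klra9 at means of 72.1 and 38.0 CPM (-0.92, edgeR adjusted p = 0.307) and Klra3 at 33.0 and 20.1 CPM (-0.71, edgeR adjusted p = 0.786). The family did not move as 1 block: Klra8, the activating receptor Ly49H, averaged 28.2 and 26.7 CPM, and Klra4, the activating Ly49D, averaged 22.9 and 36.1 CPM (0.65, edgeR adjusted p = 0.979). Ly49 genes are near-identical in places and the handling of reads with several matches is not given in the sources used here, so that counts may be shared between members.

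Itgam (chr7:128062640-128128160), the integrin alpha chain CD11b that natural killer cells gain as they mature, was at 132, 82.9 and 67.6 CPM in controls and 45.8, 27.1, 39.0 and 29.4 CPM in cKO (log2 fold change -1.41, SE 0.251, edgeR adjusted p = 0.0147). It did not pass without control library 1 (0.253) or cKO library 2 (0.128). With Gzma and Klra1 it made up the 3 of 26 genes of conventional natural killer cells that fell, against 0.0259% of all genes tested. That list had 9 higher and 17 lower estimates and a median of -0.17, and 6 members lay wholly lower in cKO, against 2.82% of the genes tested. Eomes, a transcription factor of conventional natural killer cells, was at 147, 134 and 114 CPM against 104, 74.0, 85.6 and 114 CPM (-0.48, edgeR adjusted p = 0.979), with overlap. Itga2, which encodes the DX5 antigen CD49b, averaged 87.7 and 87.3 CPM, and Cd27, a receptor of the immature stages, 115 and 123 CPM.

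Genes associated with type 1 innate lymphoid cells had mostly higher estimates, and none passed the test. Of 30 tested, 25 had higher and 5 lower estimates, where 51.6% of all genes had higher ones, and the median log2 fold change was 0.52. Before adjustment, 14 had a p below 0.05 on the higher side (2.63% of all genes tested) and 1 on the lower. Genes above the silent level had a median of 0.15 and the 808 silent receptor genes tested one of -0.16, so that expressed genes in general lay on the positive side. The groups did not overlap for 11 higher members (2.66% of all genes tested) and for 1 lower, Cd3g. Rora, a nuclear receptor best known from type 2 innate lymphoid cells, was at 147, 150 and 106 CPM in controls and 389, 270, 248 and 247 CPM in cKO (1.10, SE 0.227, edgeR adjusted p = 0.0724). Sdc4, the cell surface proteoglycan syndecan 4, was at 29.5, 21.1 and 17.6 CPM against 95.4, 51.7, 48.8 and 51.1 CPM (1.45, SE 0.307, edgeR adjusted p = 0.0912). cKO library 1 held the highest value of both. Cxcr6, a chemokine receptor of tissue-resident lymphocytes, was at 511, 242 and 239 CPM against 1261, 860, 646 and 601 CPM (1.35, edgeR adjusted p = 0.475). Il7r, the receptor chain used in the gate, was at 472, 351 and 401 CPM against 712, 631, 523 and 718 CPM (0.66, edgeR adjusted p = 0.979). Zfp683, which encodes the tissue residency factor Hobit, averaged 28.3 and 53.2 CPM (0.91, edgeR adjusted p = 0.832). Tmem176a, Tmem176b, Ckb, Itgb3, Kit and Ikzf2 were the other 6 that lay wholly higher. Against these, Itga1 averaged 62.6 and 60.9 CPM, Tnfsf10, which encodes the death ligand TRAIL, 89.1 and 118 CPM (0.41), and Cd200r1 54.9 and 77.6 CPM (0.50), each with overlap (edgeR adjusted p of 0.979 to 0.995). Among 23 genes of innate lymphoid progenitors 21 had higher estimates (median 0.27), none passed, and 5 lay wholly higher, namely Rora, Cxcr6, Il7r, Kit and Ly6a.

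**Figure D3:**
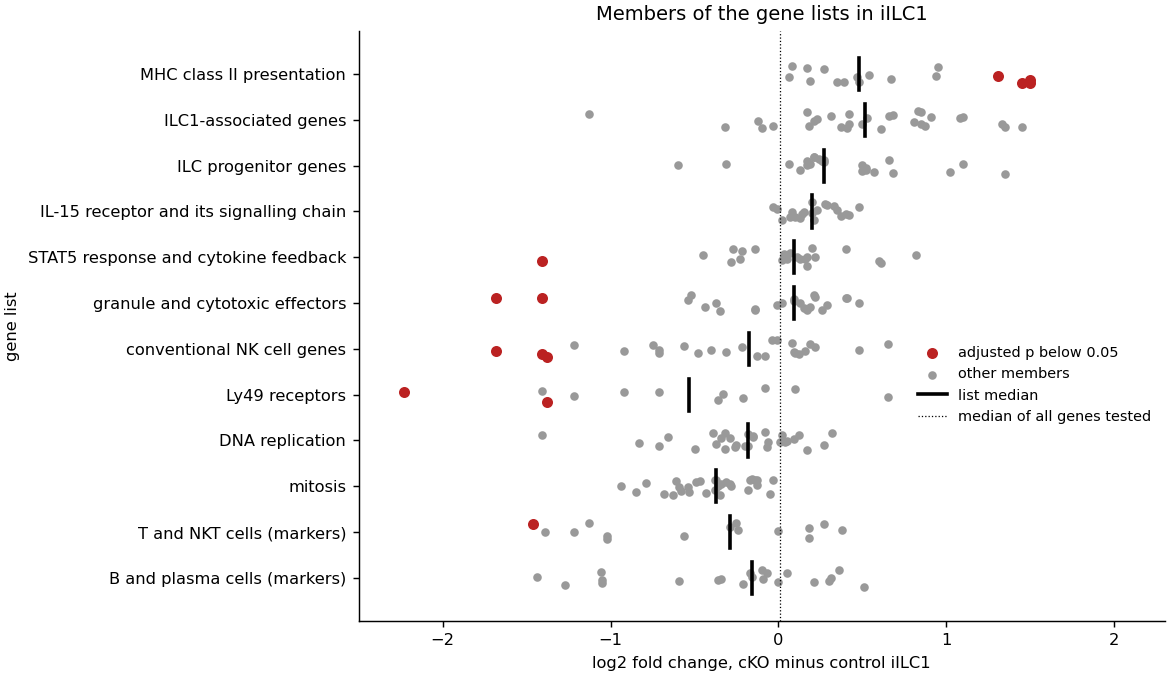
Each point is the log2 fold change (cKO minus control iILC1) of 1 member of a gene list, red where its adjusted p was below 0.05, with the list median as a bar and the median of all genes tested (0.01) as a dotted line. Red points are confined to class II genes on the right and to granzyme, Ly49, natural killer and T cell receptor genes on the left.

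One gene of the T cell receptor fell in cKO. Trac (chr14:54220521-54224206), the constant region of the alpha chain, was at 52.9, 26.6 and 58.3 CPM against 21.7, 17.5, 15 and 12.6 CPM (log2 fold change -1.46, SE 0.272, edgeR adjusted p = 0.0272). The genes of the CD3 chains lay wholly lower without passing: Cd3g (-1.13, edgeR adjusted p = 0.107), Cd3d (-1.02, 0.260) and Cd3e at 72.2, 40.5 and 79.3 CPM against 34.2, 30.0, 23.9 and 22 CPM (-1.22, 0.510). The constant regions of the beta chain differed from these. Trbc1 averaged 340 CPM in controls and 384 CPM in cKO and Trbc2 175 and 175 CPM, each with overlap. Of 15 T and NKT cell markers tested 1 fell, against 0.0259% of all genes tested. Of the 15, 11 had lower estimates (median -0.29) and 5 lay wholly lower, against 2.82% of the genes tested. All 16 markers in the table summed to 1071 ± 254 CPM (SD, n = 3) and 950 ± 277 CPM (SD, n = 4), with an exact permutation p of 0.514. The gate excluded CD3 on the surface, and how far T cells in the sort took part in these values was not tested. The Trac call was lost without control library 1 (edgeR adjusted p = 0.200), control library 3 (0.711), cKO library 2 (0.116), cKO library 3 (0.0991) or cKO library 4 (0.0604).

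The remaining 3 genes belong to no list. Psd2, a Sec7 domain protein of the family that activates the small GTPase ARF6, was at 36.3, 34.6 and 33.5 CPM in controls and 162, 116, 107 and 103 CPM in cKO (log2 fold change 1.81, SE 0.259, edgeR adjusted p = 0.00169). Its control libraries were close together, at 34.8 ± 1.38 CPM (SD, n = 3). Tmem163 (chr1:127486546-127679548), a zinc transporter of intracellular vesicles, was at 12.9, 16.7 and 15.8 CPM against 5.45, 3.31, 4.93 and 4.32 CPM (-1.75, SE 0.269, edgeR adjusted p = 0.00324). Per kilobase it lay under the level that 95% of the silent genes did not reach. Its edgeR adjusted p was 0.0419 with the iNK libraries out of the fit. It was 0.0617 when the iILC1 libraries of that fit were also thinned to equal depth. Gm6472 (chrX:152909505-152910155), annotated as a transcribed processed pseudogene, was at 21.9, 7.95 and 11.7 CPM against 60.4, 46.7, 30.4 and 29.0 CPM (1.62, SE 0.307, edgeR adjusted p = 0.0298). It was lost without control library 2 (0.380), control library 3 (0.661) or cKO library 2 (0.128), without the pair of highest and lowest background (0.559) and with the iNK libraries out of the fit (0.0892). A processed pseudogene can take reads of its parent gene. Psd2 and Tmem163 passed with any 1 library left out (edgeR adjusted p up to 0.0438 for each).

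**Figure D4:**
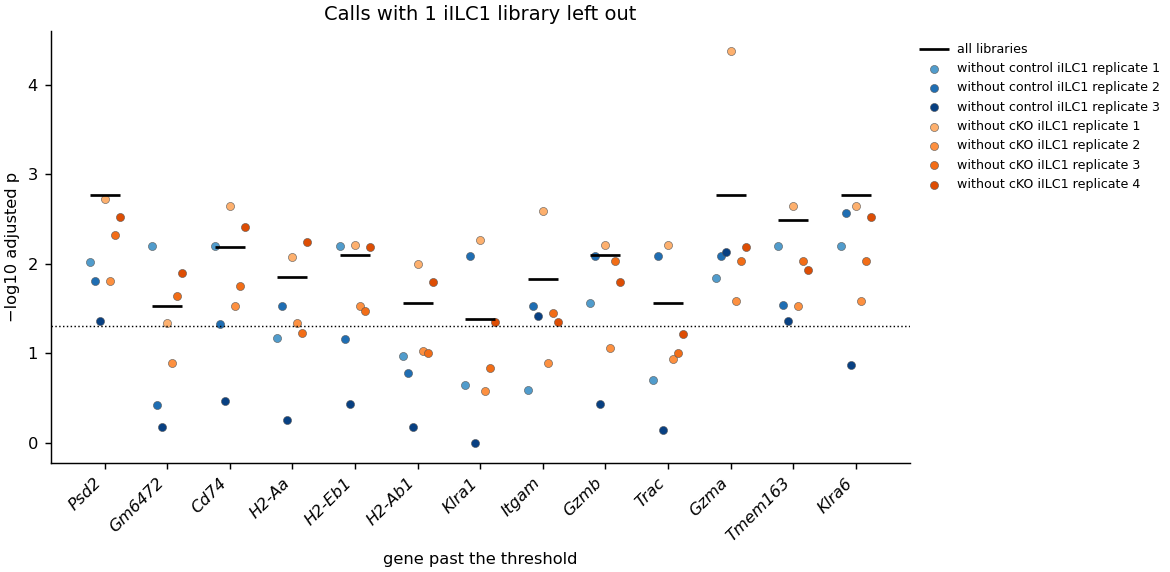
Points give the -log10 adjusted p of the 13 genes with 1 of the 7 iILC1 libraries left out, bars the value with all libraries, and the dotted line an adjusted p of 0.05. Psd2, Gzma and Tmem163 stay above the line in all 7 fits, and the points without control library 3 are the lowest for 11 genes.

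Genes of the IL-15 receptor and of its signalling chain did not differ by the test. None of 21 passed or lay wholly apart, 19 had higher estimates, and the median log2 fold change was 0.20, close to that of genes above the silent level. Il2rb, the chain shared with the receptor for interleukin 2, was at 3311, 2306 and 3100.4 CPM against 4399, 2907, 2688 and 2435 CPM (0.10, SE 0.277, edgeR adjusted p = 0.985). Its sign turned without cKO library 1 (-0.12) or control library 2 (-0.04). Stat5b averaged higher in cKO (0.37) as did Jak3 (0.42), Il2rg (0.28) and Stat5a (0.20), all with overlap and an edgeR adjusted p of 0.979. Of 22 genes of the STAT5 response and cytokine feedback only Gzmb passed, as a fall, against 0.0259% of all genes tested. In that list 15 had higher estimates and the median was 0.09. Cish, a feedback inhibitor induced through STAT5, was at 65.5, 53.1 and 104 CPM against 59.0, 69.4, 51.9 and 65.2 CPM (-0.28, edgeR adjusted p = 0.979), and without control library 3 its estimate was 0.05. Socs2, another of these inhibitors, averaged 115 and 97.8 CPM (-0.23, edgeR adjusted p = 0.979). Bcl2, the survival factor, was at 545, 439 and 624 CPM against 533, 375, 300 and 357 CPM (-0.45, SE 0.238, edgeR adjusted p = 0.979). Mcl1 had an estimate of 0.17 and Bcl2l1 of 0.03, and both turned negative without cKO library 1 (-0.05 and -0.19). No gene of the BCL2 family passed among 16 tested.

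Cell division genes had lower estimates without a call. All 30 mitosis genes lay on the lower side, with a median log2 fold change of -0.37, but only Kif20a, a kinesin of cytokinesis, had no overlap (25.7, 29.4 and 32.4 CPM against 11.0, 15.2, 17.3 and 21.6 CPM, -0.85, edgeR adjusted p = 0.624). Mki67, the marker of cycling cells, was at 38.6, 75.9 and 110 CPM against 29.7, 63.1, 42.9 and 58.7 CPM (-0.63, edgeR adjusted p = 0.979). Only 11 of the 30 were above the level under which 95% of the silent genes lay. Of all 26990 genes tested 13069 had lower estimates. The 808 silent receptor genes tested leaned lower too, with a median of -0.16 and 280 higher estimates. Of 30 DNA replication genes 21 had lower estimates, the median was -0.18 and 3 lay wholly lower, against 2.82% of the genes tested. One of these was E2f1, a transcription factor of S phase entry, at 20.8, 11.7 and 23.1 CPM against 7.39, 7.10, 3.82 and 9.28 CPM (-1.41, SE 0.297, edgeR adjusted p = 0.0898). At 3.77 CPM per kilobase E2f1 lay under the level that 95% of the silent genes did not reach. Slc7a5, the large neutral amino acid transporter, lay wholly lower at 24, 32.6 and 51.1 CPM against 12.4, 16.9, 22 and 21.6 CPM (-0.99, edgeR adjusted p = 0.260).

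Besides Klra7, Rora, E2f1, Sdc4 and Cd3g, 10 named genes had the next smallest p-values without passing (edgeR adjusted p of 0.107 to 0.176). All 10 lay wholly apart, against 5.48% of the genes tested. Genes picked for small p in the same libraries will mostly do so, and this adds no support. Higher estimates were found for Serpinb1a, an inhibitor of neutrophil proteases (1.16), Ramp1, a subunit of the receptor for the neuropeptide CGRP (1.11), Tnfrsf25, the receptor of the cytokine TL1A (1.14), Arg1, the arginine-degrading arginase 1 (1.37), Apol7b (1.12), Dscam (1.03) and Lmo4 (1.11). Lower estimates were found for Jaml, an adhesion molecule (-1.09), Cmah, which hydroxylates sialic acid (-1.25), and Rras2, a small GTPase (-1.02). Serpinb1a was at 41.8, 32.4 and 31.7 CPM against 86.7, 88.4, 71.3 and 68.8 CPM. Arg1 was at 40.4, 33.6 and 22.3 CPM against 130, 76.7, 66.8 and 57.5 CPM. Of 10 other analyses that kept all libraries or left out the pair of highest and lowest background, Klra7 and Sdc4 passed in 8 each and Arg1 in 5.

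In iNK cells the same genotypes gave 110 genes past the threshold (0.408%). These are other libraries, but the labels do not say whether iILC1 and iNK libraries came from the same mice, so that the 2 cell types may not be independent, and the fit takes them as independent and shares 1 estimate of the spread. Of the 13 genes 7 were among them, 53.8% of the iILC1 and 6.36% of the iNK calls, and 11 had the same sign. These 7 were Gzma, Gzmb, Tmem163 and the 4 class II genes. Cd74 averaged 14.2 CPM in control and 182 CPM in cKO iNK (log2 fold change 3.68, edgeR adjusted p = 3.37e-09) and H2-Aa 4.49 and 49.8 CPM (3.47, 5.57e-08). As a log2 ratio the genotype difference of both was smaller in iILC1 by the interaction test. The value of iILC1 minus iNK was -2.18 for Cd74 (edgeR adjusted p = 0.00318), -1.97 for H2-Aa (0.0390) and also -1.75 for H2-Ab1 (0.0431). For H2-Eb1 the interaction did not pass (-1.32, edgeR adjusted p = 0.359). In CPM the difference was not smaller in iILC1, where Cd74 averaged 116 and 326 CPM and H2-Aa 31.0 and 87.5 CPM. The ratios in iNK start from low control levels. The control iILC1 level of Cd74 (116 CPM) was above the control iNK level. In iNK the summed B cell markers were 591 CPM in controls and 1143 CPM in cKO, Igkc and Ly6d had estimates of 3.90 and 3.97 (edgeR adjusted p = 0.000207 and 2.33e-05), and their differences from iILC1 passed too (interaction adjusted p = 0.00199 and 0.000997). Psd2 differed the other way, at means of 4.85 and 3.77 CPM in iNK (-0.39, edgeR adjusted p = 0.797), with an interaction of 2.20 (0.0156). For Gzmb, at means of 135 and 21.5 CPM in iNK (-2.65), the interaction did not pass (1.24, edgeR adjusted p = 0.360). In all, 21 genes (0.0778%) passed the interaction test. With control library 2 left out the interactions of Psd2 (0.0623), H2-Aa (0.182) and H2-Ab1 (0.150) did not pass, and other single libraries ended them too: control library 3 for Psd2 (0.0669) and H2-Ab1 (0.0757), control library 1 for H2-Aa (0.112) and H2-Ab1 (0.148), cKO library 2 for H2-Aa (0.0949) and H2-Ab1 (0.112), and cKO library 4 for H2-Ab1 (0.0641). The Cd74 interaction passed in all 7 such fits (up to 0.0211).

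**Figure D5:**
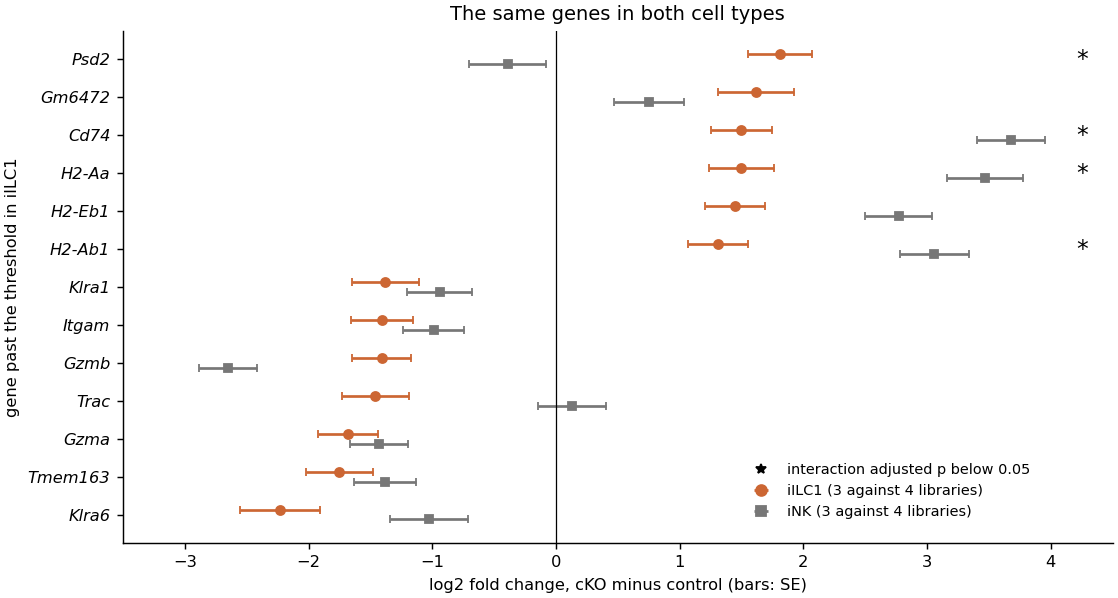
For the 13 genes past the threshold in iILC1, circles give the log2 fold change in iILC1 and squares that in iNK, each from 3 control and 4 cKO libraries with the SE as a bar, and stars mark an interaction adjusted p below 0.05. Squares lie farther right than circles for the 4 class II genes, of which H2-Eb1 has no star. Psd2 lies at 1.81 in iILC1 and at -0.39 in iNK, a starred difference.

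Among markers of other cells, 4 summed levels lay wholly higher in cKO. Neutrophil and granulocyte markers were at 67.2 ± 10.1 CPM (SD, n = 3) in controls and 187 ± 138 CPM (SD, n = 4) in cKO, type 2 innate lymphoid markers at 476 ± 51.4 and 745 ± 172 CPM, mast cell and basophil markers at 211 ± 33.2 and 315 ± 40.6 CPM, and stem and progenitor markers at 384 ± 68.0 and 507 ± 60.2 CPM. For each the exact permutation p was 0.0571, the smallest possible, and 0.171 after adjustment over 12 lists. Few genes carried most of the last 3 differences. Kit, the receptor of stem cell factor, is on both the mast cell and the progenitor list and also on that of type 1 innate lymphoid cells, and it averaged 149 CPM in controls and 239 CPM in cKO. Of the type 2 markers Rora, which is also on the type 1 list, averaged 135 and 289 CPM and Arg1 32.1 and 82.8 CPM. By member, 11 type 2 markers had higher and 6 lower estimates (median 0.16), the mast cell and basophil list had 6 and 5 (median 0.17) and the progenitor list 9 and 6 (median 0.13). The neutrophil list had 11 and 4 (median 1.37). Above the silent level were 9 of 17 type 2, 3 of 11 mast cell and basophil, 3 of 15 progenitor and 7 of 15 neutrophil markers tested. The neutrophil genes were uneven between the cKO libraries. S100a8, a calprotectin subunit abundant in neutrophils, was at 0.292, 0.398 and 0.733 CPM in controls and 22.4, 1.47, 20.8 and 6.86 CPM in cKO (edgeR adjusted p = 0.702). Lyz2, the lysozyme of myeloid cells, was at 33.0, 15.5 and 19.2 CPM against 112, 45.9, 66.6 and 36.1 CPM (1.54, edgeR adjusted p = 0.944). The part of these cells in the values of other genes was not tested.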

How the data were processed

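Bulk RNA-seq libraries of sorted bone marrow cells were analysed. The deposited values were raw, unscaled read counts by Ensembl identifier, per the file headers. Tools named in the submitters' processing notes were HISAT2 2.1.0, featureCounts from Subread 1.6.5 and Trimmomatic 0.33, with the mouse build mm10. The annotation release, strand setting and treatment of reads with several matches are not given in the sources used here, and the kits in the labels (SMART-Seq v4, Nextera XT) do not mark strand, so near-identical, overlapping and antisense genes are uncertain. Of 46078 identifiers 45143 (97.97%) had a symbol in GENCODE M21.

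Genes were kept by filterByExpr (minimum count 10, minimum total 15), scaled by TMM and fitted in edgeR 4.0.16 (R 4.3.3), with 1 mean for each of the 4 groups of all 14 libraries, 10 residual degrees of freedom and a common coefficient of variation of 30%. Two-sided quasi-likelihood F tests were adjusted by Benjamini-Hochberg over 26990 genes. The SE was taken from the estimate and its F. The fit was tested on counts simulated with these library sizes and a spread set by expression level alone. Among genes of at least 5 CPM, 53% of 100 simulated 2-fold changes and 98% of 100 4-fold changes passed, with 5 false calls. A gene that differs 2-fold can thus fail to pass. Libraries of a group differed beyond sampling noise (chi-square per degree of freedom 4.6 to 24.87), so none was counted as a copy of another, which does not show that they came from separate mice. Library measures and summed markers were compared by exact permutation.

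The members and lists were chosen with earlier results of these data known. Genes were named by a rule: all past the threshold, the 15 of next smallest p with at least 10 CPM in the higher group (predicted genes, pseudogenes and antigen receptor segments left out), up to 3 per list by p, and a set of IL-15, effector and gate genes. H2-DMa, H2-DMb1, Rfxank, Ciita, Klra3, Klra4, Klra8, Klra9, Fasl, Cd79a, Ccr2, Trbc1, Trbc2, Tmem176a, Tmem176b, Ckb and Itgb3 are outside it and were named after their values were seen. Alternatives included DESeq2 1.42.0 and limma 3.58.1 (voom). The background was taken as CPM on total counts, a scale settled after a first run on TMM-normalised values, whose count is given with the alternatives.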

Additional observations from a re-analysis of the deposited data

Results flagged for a closer look

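In the 4 cKO iILC1 libraries, 1 library lay far from the other 3 for 6 genes named above, each time as the highest of the group and each time cKO library 1. Its values were 87.1 CPM for Gzma, 389 CPM for Rora, 95.4 CPM for Sdc4, 172 CPM for Tnfsf10, 90.4 CPM for Zfp683 and 2659.9 CPM for Jak1. Chance gives about 1 such group in 20, and 66 groups of 4 were looked at. The same library had the highest total and the lowest background of the 7, and the part of either in these values was not tested.

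The genotype difference itself differed between iILC1 and iNK for 4 of the 13 genes by edgeR's interaction test. The log2 difference, iILC1 minus iNK, was 2.20 for Psd2, -2.18 for Cd74, -1.97 for H2-Aa and -1.75 for H2-Ab1. All 4 cKO iILC1 libraries lay above all 3 controls for each of these genes, and in iNK the same held for the 3 class II genes. Psd2 lay under the silent level in iNK.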

How the results depend on the processing

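All 13 calls were kept, by a count of shared genes, with no filter on low counts (47 genes called, 31 higher), a filter of at least 5 CPM (36, 21 higher), DESeq2 (31, 17 higher), voom with sample weights (55, 32 higher), the replicate block (30, 18 higher) and the background as a covariate (59, 25 higher, or 52, 24 higher, on TMM-normalised values, a form added after seeing the data). DESeq2 size factors in edgeR gave 12 and the 7 iILC1 libraries alone 14 with 11 shared. Thinned counts, also fitted without the iNK libraries, gave 23 (14 higher) with 12 shared. The fit without the libraries of highest and lowest background gave 17 (4 higher) with 10 shared. With 1 iILC1 library left out the count ran from 4 to 25. The share of calls that were higher was 46.2% with all libraries, and 66.0% with no filter, 58.3% at 5 CPM, 58.2% with voom, 60% with the block, 60.9% when thinned, 57.1% in iILC1 alone and 23.5% without the background pair. The interaction count of 21 became 56 with no filter, 37 with DESeq2, 40 with the replicate block, 34 and 33 with the covariate in its planned and added forms, and 10 to 29 with 1 library left out. The labels do not say that replicate numbers pair the samples. Deviations of same-numbered control and cKO iILC1 libraries correlated at 0.573, 0.061 and 0.221, and those of unlike number at -0.507 to 0.41. Whether libraries of the same number shared a mouse or a batch was not tested, and the block result is no paired test.

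Under the background covariate the 4 class II genes, Gzma and Gzmb stayed past the threshold. By list, members past it included 5 of 12 Ly49 receptors tested, 2 of 16 lectin receptors and 2 of 25 activating receptors. Among progenitor genes 2 of 23 passed, and among ILC1-associated genes 4 of 30. Also past it were 7 of 26 conventional natural killer genes and 4 of 30 trafficking genes. So were 2 of 21 checkpoint and TNF receptor genes and 3 of 15 T cell markers. DNA replication (30 tested), cytokine output (22), type 2 innate lymphoid cells (17) and dendritic cells (17) had 1 each. Lists share genes, so that Rora and Klra1 each count in more than 1 list. The number of calls in this fit over all 26990 genes tested is given above. The neutrophil median was 1.03 there, against 1.37. DESeq2 size factors left 1 Ly49 receptor. No estimate of the 13 genes changed sign. Estimates near 0 of genes that did not pass turned. Without the background pair they were -0.26 for Il2rb, -0.01 for Il2rg, -0.06 for Jak1, -0.06 for Stat5a, -0.23 for Bcl2l1, -0.15 for Mcl1, -0.16 for Ifng, -0.26 for Cd27 and -0.05 for Ncr1. With the covariate they were -0.09 for Il2rb, -0.16 for Bcl2l1, -0.04 for Mcl1, -0.21 for Ifng and -0.12 for Cd27, with voom -0.06 for Il2rb, -0.13 for Bcl2l1 and -0.01 for Ifng, and for Bcl2l1 -0.07 at 5 CPM and -0.03 when thinned. Itga1 was at 0.05 with the replicate block and Itga2 at 0.02 with it and at 0.02 with no filter. With 1 library left out, Il2rb ran from -0.12 to 0.20, Cish from -0.47 to 0.05, Bcl2l1 from -0.19 to 0.14, Mcl1 from -0.05 to 0.32, Gzmc from -0.15 to 0.42, Ifng from -0.21 to 0.32, Itga1 from -0.20 to 0.20, Itga2 from -0.09 to 0.12 and Cd27 from -0.15 to 0.36. The cause of these shifts was not tested.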
